A study of Mus musculus with 16 samples.

Results

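Vegfa, which encodes vascular endothelial growth factor A, and 9 other genes of the hypoxia-inducible factor (HIF) pathway were followed in mouse resident peritoneal macrophages on microarrays. The genes were chosen by name, with earlier results of these data known: Vegfa, Hif1a, Epas1, Egln1, Egln3, Bnip3, Bnip3l, Adm, Ndrg1 and Ankrd37. All 10 were measured, among 20848 genes in all, through 109 of 241576 probe sets. The cells came from Ogr1 knockout mice (-/-, here KO) and wild-type mice (+/+, here WT), both on the C57BL/6 background. Ogr1 is a G protein-coupled receptor that senses protons, and the study asked how macrophages with and without it respond to acid. The 4 groups were KO at pH 6.7, KO at pH 7.7, WT at pH 6.7 and WT at pH 7.7, each with 4 arrays. All cells were kept in RPMI 1640 medium with 10% fetal calf serum and spent 24 h at the stated pH. The sample names give these pH values, whereas the treatment text gives 6.8 and 7.6. Age, number of animals and oxygen level are not given in the sources used here. No source used here says that replicates stem from separate mice, so the p-values reflect only how much these samples scatter, and that scatter may be technical.

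HIF is a pair of proteins, an oxygen-regulated alpha subunit (HIF-1α from Hif1a, HIF-2α from Epas1) and a stable beta subunit, that switches on genes when oxygen is short. Prolyl hydroxylases such as the products of Egln1 and Egln3 mark the alpha subunits for destruction when oxygen is plentiful, so HIF activity is set largely at the protein level, which RNA arrays do not read. In macrophages HIF is known for driving glycolysis, survival at low oxygen and the release of angiogenic factors such as VEGF-A. HIF binds DNA at the short hypoxia response element, whose core is ACGTG or GCGTG.

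The 250 bases before annotated starts were searched for those 2 core words on both strands, with overlapping matches merged. RefSeq windows on GRCm38.p6 were matched for 7 of the 10 genes, with 2 windows for Vegfa. Epas1, Bnip3l and Ndrg1 had no entry. All 7 genes had a match in at least 1 window, against 41.5% of all 27025 genes with a window. Vegfa had its matches only in its second window, which lies downstream of its first start. Counted by window, 7 of 8 had a match, against 38.6% of all 32851 windows. The windows of these genes also had a higher GC content, with a median of 63.0% against 52.4% over all 32851 windows, and the part of base composition in the count was not tested. The windows of the 3 genes with a window that passed a test below are shown 5′ to 3′ along the gene's strand, since they carry the pH result. Capitals mark a core word or its reverse complement. The first Vegfa window, chr17:46032378-46032627 on the minus strand, held 0 matches. The second, at another annotated start further along the gene's strand (chr17:46025164-46025413, minus strand), held 2. For a transcript from the first start these 2 matches are not upstream sequence. Whether the second window acts as a promoter was not tested. The Hif1a window was chr12:73907617-73907866 on the plus strand with 2 separate matches. The Bnip3 window was chr7:138909507-138909756 on the minus strand with 4. A match is a run of letters and does not show that HIF binds there.
Vegfa, first start: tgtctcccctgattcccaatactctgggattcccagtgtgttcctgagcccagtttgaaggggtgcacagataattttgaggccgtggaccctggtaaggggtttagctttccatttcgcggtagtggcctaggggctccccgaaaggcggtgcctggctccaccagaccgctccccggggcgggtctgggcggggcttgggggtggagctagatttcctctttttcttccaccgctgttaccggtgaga
Vegfa, second start: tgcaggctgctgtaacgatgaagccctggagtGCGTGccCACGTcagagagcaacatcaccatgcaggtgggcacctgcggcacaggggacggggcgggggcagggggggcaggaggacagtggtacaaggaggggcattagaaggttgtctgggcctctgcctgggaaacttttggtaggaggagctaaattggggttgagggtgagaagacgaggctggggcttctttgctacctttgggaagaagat
Hif1a: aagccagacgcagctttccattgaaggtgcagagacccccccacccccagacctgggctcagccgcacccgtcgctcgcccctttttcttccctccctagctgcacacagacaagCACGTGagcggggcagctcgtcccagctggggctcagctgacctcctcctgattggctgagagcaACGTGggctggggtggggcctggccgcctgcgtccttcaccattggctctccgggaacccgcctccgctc
Bnip3: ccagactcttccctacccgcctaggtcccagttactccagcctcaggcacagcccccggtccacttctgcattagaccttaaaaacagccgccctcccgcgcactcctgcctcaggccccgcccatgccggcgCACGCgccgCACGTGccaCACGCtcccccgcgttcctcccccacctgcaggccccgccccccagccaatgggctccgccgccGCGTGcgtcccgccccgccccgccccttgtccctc

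A gene's value is the mean log2 intensity over its probe sets, from 3 for Ankrd37 to 19 for Epas1 and Ndrg1. The median intensity of an array was 8.14 to 8.61 before log2 was taken. Replicate 2 of WT at pH 7.7 stood apart, with a median correlation of 0.883 with the other arrays, against 0.907 to 0.923 for the rest. The labelled cell type was checked against markers. All 7 macrophage markers and all 5 markers of large peritoneal macrophages, among them Gata6 and Timd4, had means above the array median. The same held for 0 of 7 endothelial, 0 of 10 mesothelial and fibroblast and 0 of 5 T and NK cell markers. Of the B cell markers 2 of 4 were above it, and of the mast cell markers 2 of 6. The counts were 2 of 3 for small peritoneal macrophages, 2 of 4 for dendritic cells, 1 of 5 for neutrophils and 0 of 3 for eosinophils. The knocked-out gene itself is not analysed here, so the KO label was not checked against it. In bulk RNA, fewer cells of a type and less RNA per cell cannot be told apart.

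Vegfa rose at acidic pH in both genotypes. Differences were tested with limma on all 16 arrays and p-values were adjusted over all 20848 genes (Benjamini-Hochberg), with a threshold of 0.05. In KO cells Vegfa stood at 7.13, 7.39, 7.11 and 6.88 (log2 intensity) at pH 6.7, against 6.17, 6.51, 6.39 and 6.17 at pH 7.7. In WT cells it stood at 6.98, 7.06, 7.34 and 6.95 at pH 6.7, against 6.31, 6.02, 5.99 and 6.06 at pH 7.7. Every array at pH 6.7 lay above every array at pH 7.7, within and across genotypes. The log2 fold change was 0.82 ± 0.12 in KO cells (SE, 1.76-fold, limma adjusted p = 0.00145) and 0.99 ± 0.12 in WT cells (SE, 1.98-fold, limma adjusted p = 0.000287). The 95% intervals were 0.55 to 1.08 in KO cells and 0.72 to 1.25 in WT cells. Vegfa passed in all 16 fits that left out 1 array, in each genotype. On its brightest probe set alone, however, the change in KO cells was 0.39 with an adjusted p of 0.113, while in WT cells it was 1.16 with an adjusted p of 0.00135 (limma).

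**Figure D1:**
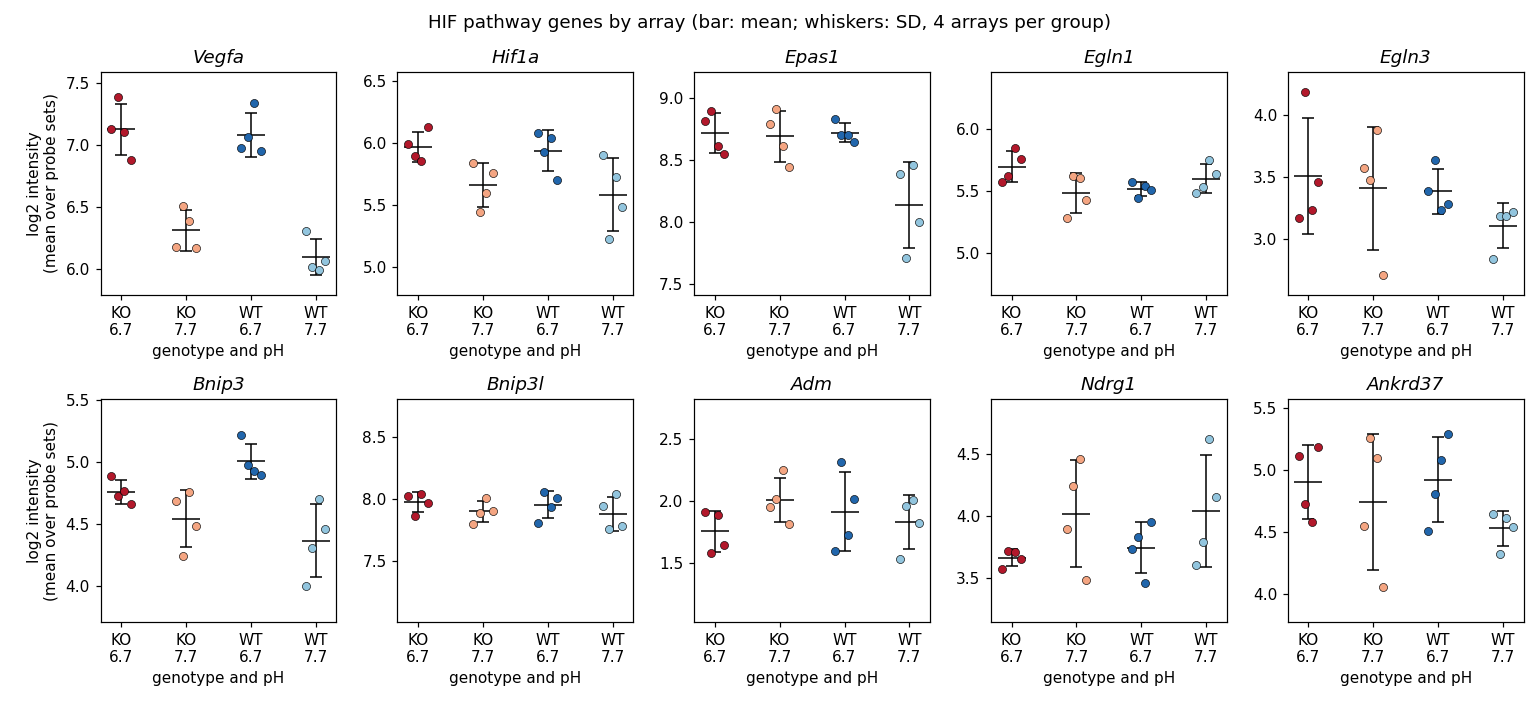
Log2 intensity (mean over probe sets) of the 10 HIF pathway genes on each array, by genotype and pH. Points are arrays, horizontal bars are means and whiskers are SD over 4 arrays, and each panel has its own axis, which does not start at 0. Vegfa separates by pH in both genotypes, and Epas1 has its lowest mean in WT cells at pH 7.7, whose arrays still overlap KO at pH 7.7.

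Vegfa's 14 single probe sets gave the same direction almost throughout. The change with pH was positive for 14 of 14 in KO cells and for 13 of 14 in WT cells. It ranged between 0.15 and 2.05 (log2) in KO cells, with a median of 0.81, and between -0.25 and 1.32 in WT cells, with a median of 1.08. Tested one by one over all 241576 probe sets, 1 passed as higher in KO cells and 3 in WT cells, where 0.121% and 0.0559% of all probe sets did. With the genotypes averaged 8 of 14 passed, against 0.379% of all probe sets. The 14 read 1 gene on the same arrays and are not replicates, and all 14 were brighter than the median probe set.

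The first and second probe sets by number, which are also the brightest, had changes of 0.39 and 0.43 (log2) in KO cells and of 1.16 and 1.02 in WT cells. On the first, KO cells at pH 7.7 read 9.26, 9.16, 9.29 and 8.88, against 8.61, 8.36, 8.49 and 8.45 in WT cells at pH 7.7. Those groups did not overlap, and KO exceeded WT by 0.67 at pH 7.7, but the limma adjusted p over all probe sets was 0.395.

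**Figure D2:**
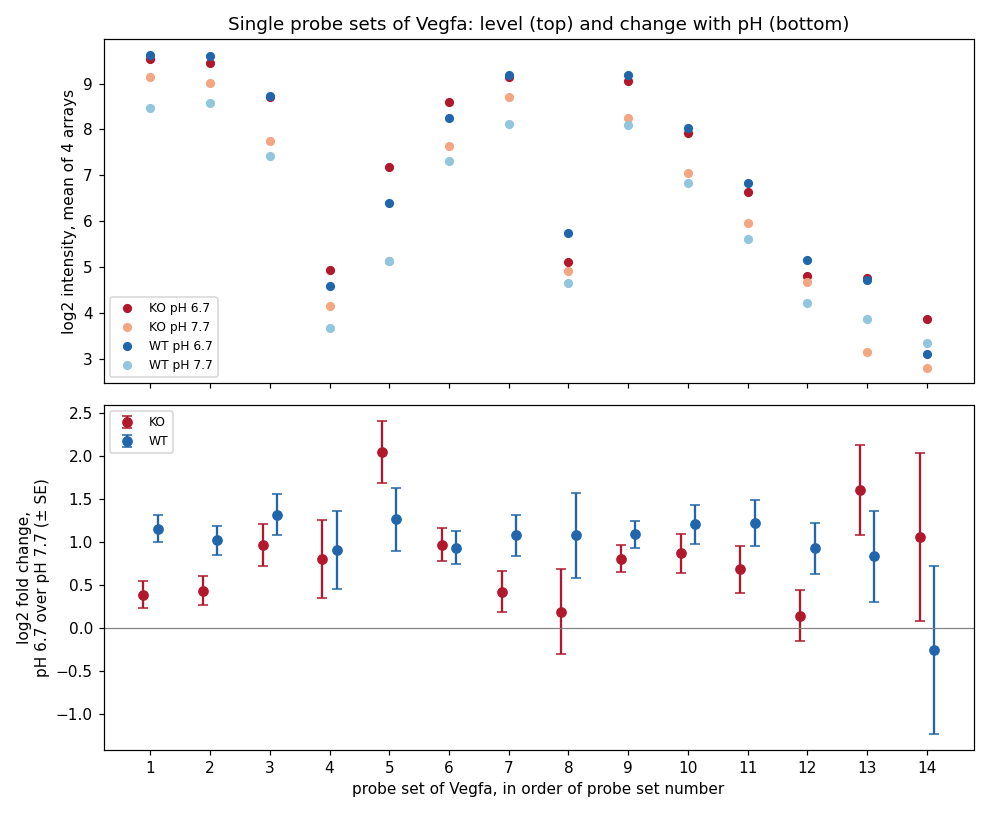
Mean log2 intensity of the 14 Vegfa probe sets by group (top) and their log2 fold change at pH 6.7 over pH 7.7 with SE (bottom), in order of probe set number. Levels of different probe sets are not comparable. Changes are above 0 for all but probe set 14 in WT cells, and the KO points lie below the WT points for 10 of 14.

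The genes of the HIF alpha subunits passed in fewer comparisons than Vegfa. Hif1a, which encodes HIF-1α, stood at 5.99, 5.90, 5.85 and 6.13 in KO cells at pH 6.7, against 5.84, 5.44, 5.60 and 5.76 in KO cells at pH 7.7. In WT cells it stood at 6.08, 5.93, 6.04 and 5.70 at pH 6.7, against 5.90, 5.22, 5.73 and 5.48 at pH 7.7. The pH groups were barely apart in KO cells and overlapped in WT cells. Neither genotype passed alone, with changes of 0.31 in KO cells (limma adjusted p = 0.206) and 0.35 in WT cells (adjusted p = 0.210). Averaged over genotypes the rise was 0.33 ± 0.097 (SE, limma adjusted p = 0.0416), and this call was lost in 14 of 27 alternative settings, 11 of them fits without 1 array.

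Epas1, which encodes HIF-2α, rose with acid in WT cells. KO cells had 8.82, 8.89, 8.61 and 8.55 at pH 6.7, against 8.80, 8.91, 8.61 and 8.45 at pH 7.7. WT cells had 8.83, 8.70, 8.70 and 8.65 at pH 6.7, against 8.38, 7.71, 8.46 and 8.0 at pH 7.7. The WT arrays at pH 7.7 were thus the low and the scattered ones, while the KO groups covered the same range at both pH values. The change was 0.026 in KO cells (limma adjusted p = 0.950) and 0.58 ± 0.15 in WT cells (SE, adjusted p = 0.0371). The difference between those changes, -0.56 ± 0.21 (SE, 95% interval -0.99 to -0.12), had an unadjusted limma p of 0.0155 and did not pass after adjustment (0.314). At pH 7.7 KO exceeded WT by 0.55 (unadjusted p = 0.00145, limma adjusted p = 0.446).

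The Epas1 pattern was shared by its probe sets, which read the same arrays. The pH change was positive for 8 of 19 in KO cells and for all 19 in WT cells, and all 19 were higher in KO than in WT cells at pH 7.7. The WT call was lost in 11 of 28 alternatives, and without replicate 2 of WT at pH 7.7, the array that stood apart, the change was 0.44 (limma adjusted p = 0.105).

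Marker lists of cell types differed between some of the same groups. The mean of the 5 large peritoneal macrophage markers lay between 5.41 and 5.88 in KO cells at pH 6.7, against 5.14 to 5.64 in KO cells at pH 7.7, a difference of 0.20 (two-sided exact permutation p = 0.229). In WT cells it lay between 5.33 and 6.03 at pH 6.7, against 4.80 to 5.16 at pH 7.7, a difference of 0.79 (exact p = 0.0286, the smallest that 4 against 4 arrays allow). Of the 5, 1 passed in limma in WT cells: Selp, singled out after its values were seen, with a change of 2.55, while that of Icam2 was -0.16 and the median of the list was 0.47. At pH 7.7 the large peritoneal macrophage list averaged 5.46 in KO and 4.97 in WT cells, a difference of 0.49 (exact p = 0.0571). Its lowest group mean, like that of Epas1, was thus in WT cells at pH 7.7. The same held for the macrophage, small peritoneal macrophage, B cell, mast cell and dendritic cell lists, but not for the others. The WT group at pH 7.7 also includes replicate 2, the array that stood apart. The mean of the 6 mast cell markers lay between 2.99 and 3.51 in KO cells at pH 7.7, against 2.02 to 2.91 in WT cells at pH 7.7 (exact p = 0.0286). Within KO cells that list was lower at pH 6.7, between 2.17 and 2.82, a difference of -0.56 (exact p = 0.0286), and in WT cells the pH difference was 0.73 (exact p = 0.229). Of the 10 mesothelial and fibroblast markers, 0 had a mean over all arrays above the median probe set. The mean of that list lay between 1.99 and 2.16 in KO cells at pH 6.7, against 2.22 to 2.27 in KO cells at pH 7.7 (exact p = 0.0286). In KO cells these 2 lists were lower at pH 6.7 and Vegfa was higher. In WT cells the mast cell and large peritoneal macrophage lists had higher means at pH 6.7, as did Vegfa. The 7 macrophage markers averaged 7.95 in WT cells at pH 6.7 and 7.66 in WT cells at pH 7.7 (exact p = 0.0857). The exact p-values were not adjusted for the number of lists and comparisons tested. The part of these lists in the results for Vegfa, Epas1 and the other genes was not tested.

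The HIF prolyl hydroxylases passed in no comparison. Egln1, which encodes PHD2, the main oxygen sensor of the pathway, had log2 changes of 0.22 in KO cells (limma adjusted p = 0.230) and -0.084 in WT cells (adjusted p = 0.803). At pH 6.7 its KO values were 5.57, 5.62, 5.84 and 5.75, against WT values of 5.57, 5.44, 5.54 and 5.51. Those groups did not overlap, the lowest KO and highest WT values being almost equal, and the difference of 0.18 did not pass (adjusted p = 0.545). Egln3, which encodes PHD3 and is itself a HIF target, had changes of 0.10 in KO cells (adjusted p = 0.843) and 0.28 in WT cells (adjusted p = 0.660). Its KO arrays spread widely, over 3.16 to 4.18 at pH 6.7 and 2.71 to 3.88 at pH 7.7. In WT cells the 4 values at pH 6.7, between 3.23 and 3.64, lay above the 4 at pH 7.7, between 2.83 and 3.22. The nearest values, 3.23 and 3.22, were almost equal. Egln3 was also dim, since the medians of the WT arrays were 3.03 to 3.10. Of its 10 probe sets 6 were brighter than the median probe set, and single probe sets changed by -1.18 to 1.20 in WT cells.

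Bnip3, a mitochondrial protein that promotes mitophagy and a classical HIF-1 target, rose with acid in WT cells. KO cells had 4.89, 4.73, 4.77 and 4.66 at pH 6.7, against 4.69, 4.24, 4.76 and 4.48 at pH 7.7. WT cells had 5.22, 4.98, 4.93 and 4.90 at pH 6.7, against 4.0, 4.30, 4.70 and 4.46 at pH 7.7. The pH groups overlapped in KO cells and were apart in WT cells. The change was 0.22 in KO cells (limma adjusted p = 0.405), 0.64 ± 0.14 in WT cells (SE, 1.56-fold, adjusted p = 0.0161) and 0.43 ± 0.098 averaged over genotypes (SE, adjusted p = 0.0105). The KO minus WT difference of the change was -0.42, with an interval of -0.84 to -0.0093 and a limma adjusted p of 0.428. At pH 6.7 all 4 KO values lay below all 4 WT values, with a difference of -0.24 (adjusted p = 0.556). Without replicate 1 of WT at pH 6.7 the WT call was lost (limma adjusted p = 0.0572), and 3 further alternatives of 27 lost it as well.

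Bnip3l, which encodes the related mitophagy receptor NIX, varied little, between 7.76 and 8.05 over all 16 arrays. Its changes were 0.075 in KO cells and 0.070 in WT cells, and the 95% intervals, -0.12 to 0.27 in KO cells and -0.13 to 0.27 in WT cells, contain no change as large as that of Vegfa.

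The remaining targets gave no call in the fit on all probe sets. Adm, which encodes the vasodilator peptide adrenomedullin, was below the array median on all 16 arrays, with values between 1.53 and 2.32. Its change was -0.25 in KO cells (limma adjusted p = 0.369) and 0.083 in WT cells (adjusted p = 0.882), at signal too low to read a direction. Ndrg1, a stress-response gene induced by hypoxia in many cell types, had changes of -0.36 in KO cells (adjusted p = 0.340) and -0.30 in WT cells (adjusted p = 0.579). Its values at pH 7.7 spread over 3.48 to 4.46 in KO cells and 3.60 to 4.62 in WT cells, and each pH 6.7 group lay inside or partly inside that span. Averaged over genotypes the Ndrg1 change was -0.33 (limma adjusted p = 0.196). With only the probe sets above the median it was -0.50 and passed as lower (limma adjusted p = 0.0409). Ankrd37, an ankyrin repeat gene known as a HIF-1 target, had changes of 0.16 in KO cells (adjusted p = 0.731) and 0.39 in WT cells (adjusted p = 0.463). Its value rests on 3 probe sets, since 3 others are shared with the gene Lrp2bp and were left out.

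In all, 1 of the 10 genes passed in KO cells and 3 in WT cells, all higher at pH 6.7, where 4.98% and 3.21% of all genes passed in either direction. Without replicate 1 of WT at pH 6.7, the WT count was 1 (Vegfa). Averaged over genotypes 3 passed (Vegfa, Hif1a and Bnip3), against 8.11% of all genes. The median change of the 10 was 0.13 in KO cells and 0.32 in WT cells, beside -0.019 and 0.0010 over all genes. Groups at pH 6.7 lay wholly above those at pH 7.7 for 2 of the 10 in KO cells (Vegfa and Hif1a), where 8.36% of all genes did. In WT cells this held for 4 of the 10 (Vegfa, Epas1, Egln3 and Bnip3), where 4.66% of all genes did. All of the 10 but Adm were among the 9387 genes above the array median on at least 4 arrays. Of those 9387, 1239 passed in limma in KO cells and 913 in WT cells, larger shares than over all genes. The all-gene shares given below include dim genes too. The 10 genes and the lists were chosen with earlier results of these data known, so the counts are descriptive.

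**Figure D3:**
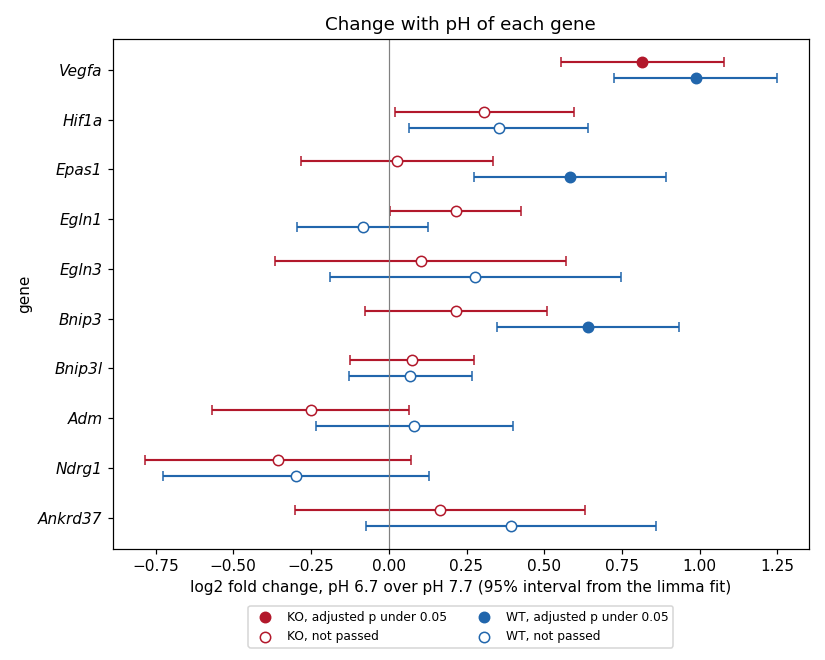
Log2 fold change at pH 6.7 over pH 7.7 for each of the 10 genes in KO (red) and WT (blue) cells, with 95% intervals from the limma fit. Filled points passed at an adjusted p under 0.05: Vegfa in both genotypes, and Epas1 and Bnip3 in WT cells.

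The genotype itself gave no call among the 10 genes. The KO minus WT comparison called 0 of the 10 at pH 7.7 and 0 of the 10 at pH 6.7 in limma, where 0% and 0.024% of all genes passed. At an unadjusted p under 0.05 these counts were 1 (Epas1) and 0 of the 10, and 1574 and 2179 of all genes. Vegfa differed between KO and WT by 0.21 at pH 7.7 (limma adjusted p = 0.730) and by 0.043 at pH 6.7 (adjusted p = 0.934). At pH 6.7 the groups without overlap were Egln1, higher in KO as 4.24% of all genes were, and Bnip3, lower in KO as 2.75% of all genes were.

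The test of whether the pH change itself differed by genotype also called 0 of the 10, where 0.0432% of all genes passed in limma, and 3 of the 10 (Epas1, Egln1 and Bnip3) had an unadjusted p under 0.05, as did 2361 of all genes. For Vegfa the KO minus WT difference was -0.17 ± 0.18 (SE, limma adjusted p = 0.756), with a 95% interval of -0.54 to 0.20. Over the alternatives this difference ranged from -0.76 to -0.085, and it passed in none of the 27. The value of -0.76 came from the brightest probe set alone (limma adjusted p = 0.0878). Equal changes in KO and WT cells are therefore not shown.

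Among 28 other HIF targets measured of 29 listed, 6 rose at pH 6.7 in KO cells and 7 in WT cells, where 3.21% and 2.18% of all genes were called higher, and 0 fell. The median change of the list was -0.040 in KO cells and 0.10 in WT cells, beside -0.019 and 0.0010 over all genes, and 22 of 28 did not pass in KO cells and 21 of 28 in WT cells. P4ha1, a collagen prolyl 4-hydroxylase subunit, stood at 5.50, 5.59, 5.51 and 5.60 in KO cells at pH 6.7, against 4.94, 4.95, 4.82 and 4.70 in KO cells at pH 7.7. In WT cells it stood at 5.49, 5.64, 5.34 and 5.15 at pH 6.7, against 4.67, 4.54, 4.83 and 4.74 at pH 7.7. All arrays at pH 6.7 were above all at pH 7.7, with changes of 0.70 in KO cells (limma adjusted p = 0.00156) and 0.71 in WT cells (adjusted p = 0.00107).

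Plin2, a lipid droplet coat protein, rose by 0.69 in KO cells (limma adjusted p = 0.00549) and by 0.95 in WT cells (adjusted p = 0.000409). Ero1a, an oxidase of disulfide bond formation, rose by 0.69 in KO cells (adjusted p = 0.00109) and by 0.45 in WT cells (adjusted p = 0.0158). Angptl4, an inhibitor of lipoprotein lipase, rose by 1.32 in KO cells (adjusted p = 0.0252) and by 1.85 in WT cells (adjusted p = 0.00303), with wide scatter at pH 6.7. Hmox1, the haem-degrading enzyme, which also answers to oxidative stress, rose by 0.62 in KO cells (adjusted p = 0.00304) and by 0.42 in WT cells (adjusted p = 0.0342). On the brightest probe set alone P4ha1 and Ero1a passed in neither genotype, and Hmox1 did not pass in KO cells. These 5 genes were named for having the smallest p-values of the list, so they show the leading end of the list. Outside that rule, and named after their values were seen, Hilpda, Gbe1, Selenbp1 and Car9 also passed in at least 1 pH comparison.

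Of 19 HIF targets of glycolysis, the best-known HIF-1 programme, 1 rose in KO cells and 1 in WT cells, where 3.21% and 2.18% of all genes were called higher. Pdk1, a kinase that holds back pyruvate entry into mitochondria, rose by 0.48 in KO cells (limma adjusted p = 0.0140), with a change of 0.37 in WT cells (adjusted p = 0.0614). Pfkl, a phosphofructokinase subunit, had a change of 0.51 in KO cells (adjusted p = 0.0534) and rose by 0.67 in WT cells (adjusted p = 0.0161). Averaged over genotypes 2 of the list rose and 1 fell, where 8.11% of all genes passed in either direction. In that comparison Pdk1 rose by 0.42 (limma adjusted p = 0.00124) and Pfkl by 0.59 (adjusted p = 0.00148). Pfkp, another phosphofructokinase subunit, fell by 0.42 on the log2 scale averaged over genotypes (adjusted p = 0.0211). The median of the list was -0.044 in KO cells and 0.070 in WT cells, beside -0.019 and 0.0010 over all genes.

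Of the 13 genes of oxygen sensing and the HIF complex, 1 passed in KO cells and 0 in WT cells, where 4.98% and 3.21% of all genes passed. The gene was Cited2, a HIF-induced protein that competes with HIF-1α for the coactivator p300, which fell in KO cells. It stood at 6.85, 6.41, 6.28 and 6.22 in KO cells at pH 6.7, against 7.81, 6.87, 7.01 and 7.38 at pH 7.7, and the groups were nearly in contact. The change was -0.83 in KO cells (limma adjusted p = 0.0227) and 0.13 in WT cells (adjusted p = 0.858), and the KO call was lost in 7 of 28 alternatives. Among 9 VEGF relatives and receptors 0 passed in KO cells and 1 in WT cells, against the same shares of all genes. It was the VEGF co-receptor Nrp2, with changes of -0.28 in KO cells (adjusted p = 0.115) and -0.49 in WT cells (adjusted p = 0.0108).

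Of 13 measured mitophagy genes 4 rose in KO cells, where 3.21% of all genes were called higher, and 0 passed in WT cells, where 3.21% of all genes passed. In WT cells 11 of 13 changes were positive, beside 50.3% of all genes. The autophagy receptor Optn had changes of 0.58 in KO cells (limma adjusted p = 0.00772) and 0.33 in WT cells (adjusted p = 0.149). The mitophagy receptor Fundc1 had changes of 0.56 in KO cells (adjusted p = 0.0219) and 0.083 in WT cells (adjusted p = 0.865). The receptor Sqstm1 had changes of 0.42 in KO cells (adjusted p = 0.0251) and 0.24 in WT cells (adjusted p = 0.273). The KO calls were lost in 2 of 28 alternatives for Optn, 5 for Fundc1 and 6 for Sqstm1. Gabarapl1, a tag on autophagosome membranes, rose by 0.35 in KO cells (adjusted p = 0.0491), a call lost in 15 of 28 alternatives and turned in sign in 1. Averaged over genotypes the same 4 rose, where 8.11% of all genes passed in either direction. The averaged changes were 0.45 for Optn (limma adjusted p = 0.00151) and 0.33 for Sqstm1 (adjusted p = 0.00755). They were 0.32 for Fundc1 (adjusted p = 0.0405) and 0.24 for Gabarapl1 (adjusted p = 0.0391). Of 27 alternatives, 2 lost the averaged call for Optn, 1 for Sqstm1, 15 for Fundc1 and 13 for Gabarapl1. The mitophagy list had 0 calls for the KO minus WT difference of the pH change, so a difference between the genotypes is not shown. The 5 adrenomedullin receptor genes and 3 further NDRG genes gave 0 calls in each genotype.

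**Figure D4:**
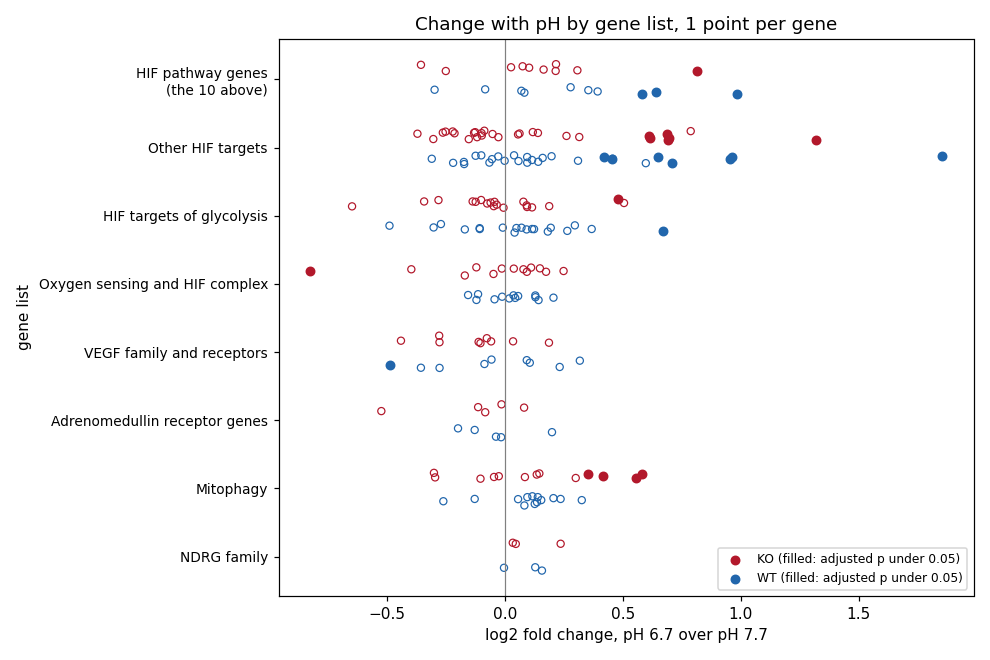
Log2 fold change at pH 6.7 over pH 7.7 of each gene, by gene list, in KO (red) and WT (blue) cells. Filled points passed at an adjusted p under 0.05. Most points of each list lie near 0, and the filled points are Vegfa, Epas1 and Bnip3, 6 other HIF targets in KO and 7 in WT cells, and few genes elsewhere.

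Likeness to Vegfa was measured as Pearson's r over the 16 arrays among 18911 genes. The 5 genes most like it were Slc11a1, a phagosomal metal transporter (r = 0.952), Itgb1, the integrin β1 chain (0.948), P4hb, protein disulfide isomerase (0.945), Dhdh (0.943) and Gpcpd1 (0.941). The arrays fall into separate pH groups, which these values include. With group means removed r was 0.59, 0.70, 0.53, 0.45 and 0.31 in the same order. Among the other HIF pathway genes, r over all arrays was 0.65 for Hif1a, 0.63 for Epas1 and 0.62 for Bnip3. With group means removed it was -0.035 for Hif1a, 0.43 for Epas1 and -0.40 for Bnip3.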

How the data were processed

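RNA was measured on 16 arrays, grouped by the sample labels into 4 combinations of genotype and pH with 4 replicates each. Per the submitters' processing notes, the authors made the deposited intensity values with RMA and R 2.15.2. RMA corrects background, quantile-normalizes and summarises the probes of each probe set, and the values given are linear. Quantile normalization by the authors removes shifts shared by most genes, so values are relative to the bulk of the array.

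Here log2 was taken of each deposited intensity. Probe sets with exactly 1 gene symbol in the platform annotation (213361, against 5107 with several and 23108 with none listed) were averaged per gene, giving 20848 genes with no filter on low values. limma 3.58.1 in R 4.3.3 fitted the 4 group means, with 6 comparisons and Benjamini-Hochberg adjustment over all genes. Gene lists were compared by counts and medians, marker lists by exact permutation tests. The text names all 10 chosen genes, up to 4 genes per list and comparison with the smallest p among those that passed, and the 5 genes most like Vegfa, without predicted genes, clones and pseudogenes. A few further genes are named and marked as chosen after their values were seen. The members and lists were chosen with earlier results of these data known. The fit was tested on simulated data. The labels name no date or batch. The number of arrays limits the precision. Alternatives covered the choice of probe sets, filters, scaling, variance model, array weights, replicate block and single arrays left out.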

Additional observations from a re-analysis of the deposited data

Results flagged for a closer look

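Replicate 1 of WT at pH 7.7 had an Egln3 value of 2.83, far below the other WT arrays at pH 7.7, which lay between 3.18 and 3.22. The gap took up more of the group's range than Dixon's 95% critical value allows. It was the only such value among 40 groups of 4 arrays examined (10 genes in 4 groups), and chance flags about 1 in 20.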

How the results depend on the processing

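Of the results for the 10 genes, 1583 kept their direction, where called, and their side of the threshold, 31 lost a call and 4 gained one, with sign changes of uncalled values counted as kept. The gained calls were averaged over genotypes, 3 for Epas1 (higher at pH 6.7) and 1 for Ndrg1 (lower at pH 6.7). Vegfa lost only the KO call, on the brightest probe set. With the brightest probe set per gene, 0 of the 10 passed in KO cells, 1 in WT cells and 1 averaged over genotypes (Vegfa). In WT cells 1 (Vegfa) also passed with the median over probe sets or with only the arrays of the compared groups. With 1 array left out, the counts were 1 to 1 in KO cells, 1 to 3 in WT cells, 2 to 4 averaged, and 0 to 0 in the 3 genotype comparisons. The low count in WT cells came without replicate 1 of WT at pH 6.7. With a filter on dim probe sets 3 Vegfa probe sets passed in KO cells and 5 in WT cells. Gabarapl1 in KO cells turned to -0.015 on the brightest probe set. The cause of these shifts was not tested.

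Over all genes, 1038 passed in KO cells and 669 in WT cells, against 570 and 175 with the brightest probe set and 415 and 315 with the median, and 239 in WT cells with only the compared arrays. Averaged over genotypes 1690 passed, against 529 with the brightest probe set and 930 with the median. With 1 array left out these counts ran over 451 to 1282 in KO cells, 379 to 624 in WT cells and 1320 to 1655 averaged. The KO minus WT difference of the pH change passed for 9 genes, against 83 with the brightest probe set, 50 with probe sets above the median, 2 with the median, 1 with the replicate block and 1 to 17 with 1 array left out. KO minus WT passed for 0 genes at pH 7.7 (0 to 3 with 1 array left out) and 5 at pH 6.7 (67 with the brightest probe set, 29 with probe sets above the median, 0 to 7 with 1 array left out). Higher genes made up 68.0% of the WT calls as deposited, against 60.3% with centred arrays and 55.6% with another quantile normalization. Arrays with the same replicate number deviated from their group means with correlations between -0.044 and 0.027, and 3 of 16 arrays correlated best with their own number. These correlations cover all single probe sets, dim ones included, so they cannot settle whether arrays with the same number share an origin. The replicate block changed no call of the 10 genes, but the Gabarapl1 calls (adjusted p = 0.0784 in KO cells and 0.0657 averaged, limma) and the averaged Fundc1 call (0.0516) were lost. Taking Bnip3 and Bnip3l from consecutive probe set numbers only, an alternative chosen after seeing the data, changed no call of the 10 genes. Over all genes the WT count was then 668 against 669. Dim genes such as Adm are limited by signal over background.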
